A study of Mus musculus with 12 samples.

Results

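The comparison described here set the dorsal cerebral cortex of wild-type adult mice against the dorsal telencephalon of wild-type embryos at embryonic day E12.5, the embryonic tissue from which that cortex forms. It used 6 of the 12 arrays of the series, chosen by their sample titles, with 3 arrays for each stage. Of 45101 probe sets on the array, 23141 had a log2 value over 4 on at least 3 of these 6 arrays and were tested, and 19760 of them carried 1 gene symbol and stood for 11262 genes.

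The series was made to look for genes that depend on Qkf (Kat6b), a histone acetyltransferase, in both tissues, and its other 6 arrays come from animals with a gene-trap insertion on both alleles of that gene. The wild types carried no such allele. All animals were of the 129/Sv strain. The adults were 3 male mice of 155, 112 and 101 days, named adults 1, 2 and 3. The E12.5 tissue came from 2 crosses by the parents in the labels, sample 1 from one cross and samples 2 and 3 from the other, with no sex labelled. The labels do not say how many embryos went into an E12.5 array. RNA was amplified over 2 cycles before labelling, and the deposited value of a probe set is a log2 intensity. The mutant arrays entered the fit for their spread between arrays and served as a second set of stage differences. Stage, dissected region and array set run together, since the dates in the array names do not overlap between the stages, and their parts in any difference cannot be told apart.

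At mid-gestation the wall of the dorsal telencephalon consists largely of radial glia, dividing progenitors with their cell bodies in the ventricular zone, together with intermediate progenitors and the first postmitotic neurons. Astrocytes and myelinating oligodendrocytes arise later, and neurons form most of their synapses after birth. The adult cortex is thus a tissue of mature excitatory and inhibitory neurons, astrocytes, oligodendrocytes, microglia and vessels, in which few cells divide. RNA from whole tissue gives levels per unit of RNA, so a larger share of cells of a type and more RNA per cell cannot be told apart in any value below.

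A gene is said to have risen or fallen where its level in adult cortex was higher or lower than at E12.5 and the difference passed the treat test of limma against a 2-fold change, at an adjusted p under 0.05. Adjusted p-values given with a gene are from that test unless stated, and differences are adult minus E12.5 on the log2 scale, with a standard error (SE) from the fit. The lowest value on every array was 2.19, so a difference from a value near that floor understates the change. The p-values measure the spread between these samples. A gene with values over 4 in only one stage had to differ in order to be tested, so the counts over each list are also given for probe sets over 4 on all 6 arrays, called measured in both stages. The lists are described by counts, read against the shares over all genes.

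The 3 arrays of a stage were alike. Correlations over all probe sets were 0.996 to 0.997 among adults, 0.989 to 0.995 among E12.5 samples and 0.84 to 0.847 between the stages. The median SD of a probe set was 0.142 in adults and 0.168 at E12.5, and array medians ran from 3.64 to 3.74. Hybridization spikes added in fixed amounts stood lower on the adult arrays, with differences of -1.72 to -1.49 for BioB and -1.29 to -1.06 for BioC, while the beta-actin probe set near the 3′ end differed by 0.19. The part of these shifts in the results was not tested. Xist stood at 13.12 and 13.14 in E12.5 samples 1 and 2 and at 2.19 in sample 3 and in all 3 adults, and the Y-linked gene Eif2s3y stood at 9.37 in sample 3 and between 7.96 and 8.39 in the adults, so that 2 of the 3 E12.5 samples had a female pattern and the adults a male one.

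Most of the measured transcriptome differed between the tissues. Of 23141 probe sets, 18327 (79.2%) were called by limma's ordinary test at an adjusted p under 0.05, 8137 higher and 10190 lower in adults. Of the 11262 genes, 4323 were called higher (38.4%) and 4814 lower (42.7%). Past the 2-fold test, 2499 genes rose (22.2%) and 2420 fell (21.5%). The median gene differed by 1.19 in either direction, and the median signed difference was -0.0766. Very large differences were more often rises: a log2 difference of 4 or more was found for 792 genes that rose and 404 that fell, and one of 8 or more for 49 and 30. For 3390 genes (30.1%) the 95% interval of the difference lay within 1 log2 unit of 0. The values of the 2 stages did not overlap for 9547 genes (84.8%), the background for each remark on overlap below. With only the 9474 genes whose probe set was over 4 on all 6 arrays, 1607 rose (17.0%) and 1859 fell (19.6%). Figures of 22.2% and 21.5% are the background for the counts of list members that follow.

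**Figure D1:**
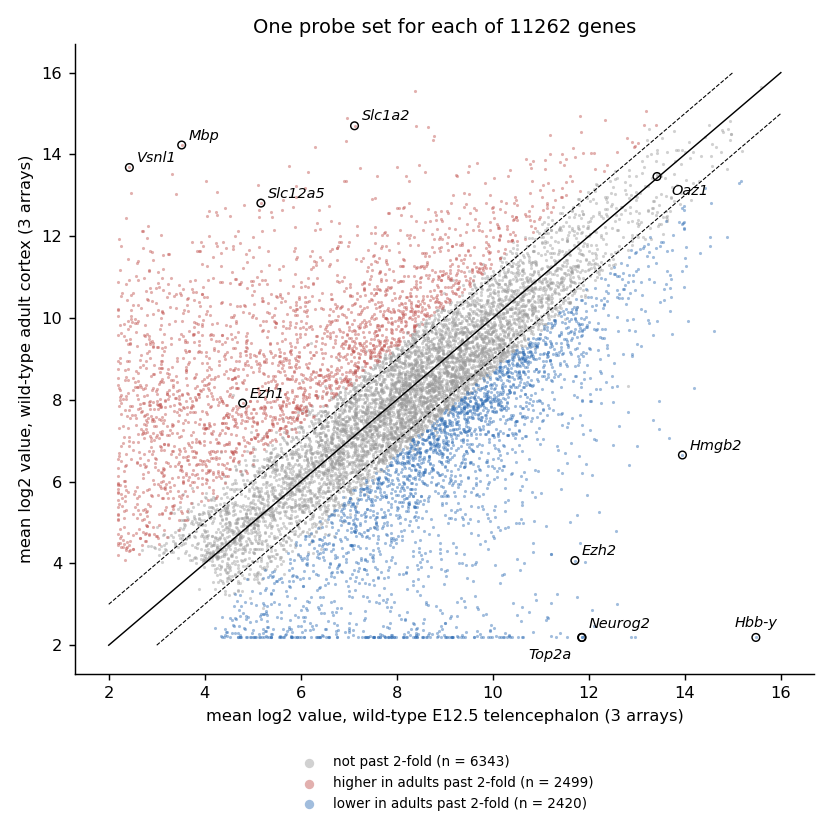
Mean log2 value over the 3 wild-type E12.5 arrays (horizontal) and the 3 wild-type adult arrays (vertical) for 1 probe set of each of 11262 genes. Red points are the 2499 genes that rose past 2-fold, blue points the 2420 that fell, and grey points the remaining 6343; the solid line marks equal values and the dashed lines a 2-fold difference. Slc1a2 and Mbp lie far above the line, Top2a, Neurog2 and Hbb-y lie on the adult floor, and Oaz1 lies on the line.

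The genes of cell division were lower in adults. Top2a, the topoisomerase that untangles DNA for chromosome segregation, stood at 11.88, 11.87 and 11.82 in the E12.5 samples and at 2.19, 2.20 and 2.19 in the adults. Mki67, which encodes the proliferation antigen Ki-67, went from 11.90, 11.88 and 11.94 to 2.27, 2.21 and 2.21. Every adult value of both genes was at or next to the floor. The differences were -9.66 for Top2a (SE 0.08, adjusted p = 2.3e-14) and -9.68 for Mki67 (SE 0.09, adjusted p = 3.6e-14). Ube2c, the ubiquitin-conjugating enzyme of the anaphase-promoting complex, fell by 9.65. The spindle protein gene Nusap1 fell by 9.13 and the mitotic kinase Cdk1 by 9.11. Bub1, a kinase of the spindle checkpoint, fell by 8.43, and the centromere protein gene Cenpf by 8.16. Of the 32 mitotic genes tested, 32 fell, with a median of -7.6, but 27 of them had values over 4 at E12.5 only. Among the 5 that were over 4 on all 6 arrays, 5 fell as well. Cdc20, the activator of the anaphase-promoting complex, was one of these, at 11.87, 11.80 and 11.80 at E12.5 against 4.48, 4.48 and 4.55. Incenp, a partner of Aurora B kinase, had the smallest difference of the list, -2.71.

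DNA replication genes fell as a group too, and more of them were still measured in adults. Of 35 genes tested, 33 fell, with a median of -5.47, and among the 18 with a probe set over 4 on all 6 arrays 17 fell. Mcm5 and Mcm7 encode subunits of the replicative helicase. Mcm5 went from 12.91, 12.71 and 12.86 to 6.78, 6.15 and 6.28, and Mcm7 from 13.02, 12.95 and 13.02 to 6.88, 6.96 and 6.81. Neither gene's groups came near each other, and the differences were -6.43 and -6.11 (adjusted p = 6.2e-10 and 2.2e-12). Ribonucleotide reductase supplies deoxynucleotides. Its small subunit Rrm2 fell by 9.58 and its large subunit Rrm1 by 6.28. Mcm6 fell by 9.20, the replication licensing factor Cdc6 by 7.46 and Uhrf1, which reads methylated DNA behind the fork, by 8.02. Pcna, the sliding clamp, kept adult values of 10.79, 10.74 and 10.68 against a mean of 13.7 at E12.5, a difference of -2.96. The 2 genes that were called lower but short of the 2-fold test were Orc1 (-1.13) and Ccne1 (-1.10). With their probe sets averaged, both passed it (-2.39 and -1.29).

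Because mitotic and replication genes moved together, the sequences before their transcription starts are shown. Promoter entries of RefSeq (build GRCm38.p6), from 250 bases before to 50 after the start, were found for 9141 of the 11262 genes (81.2%). The first 4 sequences are the 150 bases before the start of mitotic genes, 5′ to 3′ on the strand of the gene, with each TTTGAA (the core of the cell cycle homology region) and each CCAAT (the NF-Y element), on either strand, in capitals. They are Mki67 (chr7:135716380-135716529, minus strand), Top2a (chr11:99024190-99024339, minus), Ube2c (chr2:164769779-164769928, plus) and Cdk1 (chr10:69352913-69353062, minus).
Mki67: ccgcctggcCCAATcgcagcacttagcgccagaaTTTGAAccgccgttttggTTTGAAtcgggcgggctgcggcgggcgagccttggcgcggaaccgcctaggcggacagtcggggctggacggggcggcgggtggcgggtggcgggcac
Top2a: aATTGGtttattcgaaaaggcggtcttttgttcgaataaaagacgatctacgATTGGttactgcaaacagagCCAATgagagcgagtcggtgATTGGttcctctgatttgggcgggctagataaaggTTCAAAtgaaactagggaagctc
Ube2c: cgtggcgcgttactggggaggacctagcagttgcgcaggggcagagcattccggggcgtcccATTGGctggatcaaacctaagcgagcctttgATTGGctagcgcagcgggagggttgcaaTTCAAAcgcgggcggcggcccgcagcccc
Cdk1: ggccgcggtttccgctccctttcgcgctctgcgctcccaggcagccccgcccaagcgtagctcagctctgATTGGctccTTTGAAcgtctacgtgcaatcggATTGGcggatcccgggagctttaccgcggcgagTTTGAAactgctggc
In these stretches a match to TTTGAA or its complement lay 116 and 98 bases before the start of Mki67, 23 before that of Top2a, 29 before that of Ube2c, and 71 and 15 before that of Cdk1. Each of the 4 also held at least 1 CCAAT or its complement farther upstream than its TTTGAA nearest to the start. They were picked as genes that hold both motifs here, as do 9 of the 27 mitotic genes with an entry.

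The second set holds replication genes with an E2F element, TTTGGCGC or TTTCCCGC on either strand, in capitals, again over the 150 bases before the start. They are Mcm6 (chr1:128359706-128359855, minus strand), Cdc6 (chr11:98908001-98908150, plus) and Mcm5 (chr8:75109359-75109508, plus), picked from the 4 of 29 replication genes with such a match in this stretch.
Mcm6: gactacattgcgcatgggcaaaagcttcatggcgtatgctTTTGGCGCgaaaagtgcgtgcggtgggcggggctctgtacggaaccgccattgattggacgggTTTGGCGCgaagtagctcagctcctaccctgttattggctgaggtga
Cdc6: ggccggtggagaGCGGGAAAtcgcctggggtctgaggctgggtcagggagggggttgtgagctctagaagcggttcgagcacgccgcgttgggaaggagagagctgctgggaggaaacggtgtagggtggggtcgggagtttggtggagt
Mcm5: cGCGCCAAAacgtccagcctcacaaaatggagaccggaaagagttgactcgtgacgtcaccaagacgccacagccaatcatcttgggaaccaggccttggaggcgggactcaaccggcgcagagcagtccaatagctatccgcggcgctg
Mcm6 holds 2 matches, 110 and 47 bases before the start. The match of Cdc6 lies 138 bases and that of Mcm5 149 bases before the start.

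Over the whole 300-base window, TTTGAA was found on either strand in 21 of 27 mitotic promoters (77.8%), in 5 of 29 replication promoters (17.2%), in 11.2% of the promoters of tested genes and in 18.1% of all 27025 promoters in the table. CCAAT was found in 21 of the 27 mitotic promoters (77.8%), in 55.2% of replication promoters and in 39.2% of the promoters of tested genes, and 19 of the 27 mitotic promoters (70.4%) held both motifs, against 4.8% of tested genes. Either E2F form was found in 9 of 29 replication promoters (31.0%), in 0 of 27 mitotic ones and in 3.22% of tested genes. Over all genes past 2-fold, these lists included, TTTGAA was present in 15.4% of the promoters of genes that fell and 7.9% of those that rose. It was present in 14.5% of the genes that fell and are in neither cell cycle list. An E2F form was present in 5.91% and 1.89% of the promoters of genes that fell and rose. Promoters with a CpG ratio over 0.6 made up 81.1% of those of genes that fell and 62.3% of those of genes that rose, at a like median GC content of 61.7% and 62.3%. The TATA element TATAAA was found in 6.48% and the Sp1 element GGGCGG in 66.4% of the promoters of tested genes. A match is a description of letters in a window, not of a bound site, and no match says nothing about a factor.

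**Figure D2:**
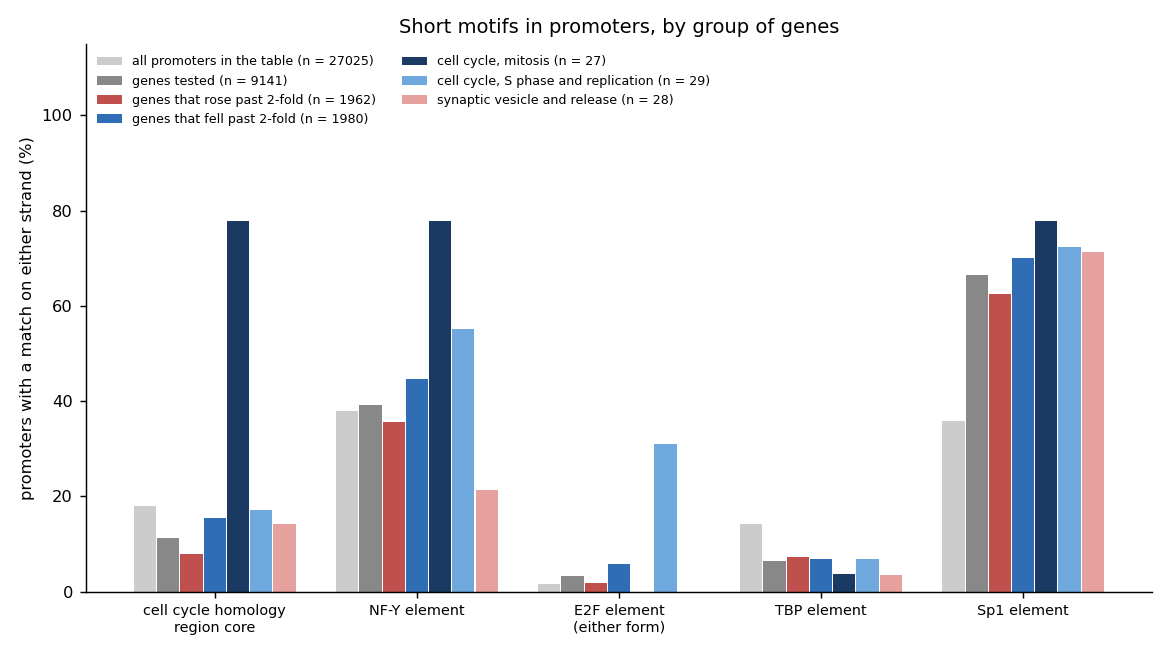
Share of promoters (vertical axis, percent) with a match on either strand to each of 5 short motifs (horizontal axis), by group of genes, over the 300-base RefSeq window. The mitotic genes reach 77.8% for both the cell cycle homology region core and the NF-Y element, and the replication genes 31.0% for the E2F element, where the mitotic genes have 0.

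Markers of radial glia and other neural progenitors were lower in adults. Pax6, a transcription factor of dorsal progenitors, stood at 10.05, 10.38 and 10.30 at E12.5 and at 3.70, 3.91 and 3.61 in adults. Nes, which encodes the intermediate filament nestin, went from 9.03, 8.95 and 8.98 to 2.23, 2.31 and 2.23. Both genes had wide gaps between the stages, of -6.50 and -6.73 (adjusted p = 3.4e-11 and 4.9e-12). Of 31 genes tested, 25 fell and 1 rose. With only probe sets over 4 on all 6 arrays, 19 of 25 fell and 1 rose. The largest falls were those of the chromatin protein gene Hmga2 (-9.36), the transcription factor gene Tead2 (-8.09), the spindle-pole gene Aspm (-7.92) and Sox3 (-7.47). The Notch ligand gene Dll1 fell by 5.55, and its receptor Notch1 (-2.87) and the Notch target Hes5 (-3.33) fell by less.

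Several progenitor genes stayed well above the floor in adults. Sox2 had a mean of 13.23 at E12.5 and of 9.95 in adults, a difference of -3.28 with no overlap. Fabp7, a fatty acid binding protein of radial glia, fell by 3.37, from 13.25 to 9.87. Slc1a3, the glutamate transporter GLAST, which is made by radial glia and by astrocytes, was the 1 gene of the list that rose, from 8.25, 8.77 and 8.74 to 11.43, 11.76 and 11.38 (adjusted p = 3.5e-06). Ttyh1 (0.42), Ednrb (-0.26) and Id1 (-0.55) were not called, though Ttyh1 was without E12.5 sample 2 (0.51) or 3 (0.53).

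Genes of neurogenesis fell more often than they rose. The proneural factor Neurog2 stood at 11.19, 12.18 and 12.18 at E12.5 and at 2.19 on all 3 adult arrays, a difference of -9.66. Eomes, the transcription factor of intermediate progenitors also called Tbr2, went from 10.62, 11.59 and 11.41 to 2.22, 2.22 and 2.24. In both, E12.5 sample 1 was the lowest of its group, with no overlap between the stages. Falls of like size were those of Neurog1 (-7.14), Nhlh2 (-6.82) and Igfbpl1 (-6.42), which is expressed in newborn neurons, and of the transcription factor genes Insm1 (-5.15) and Sox11 (-5.48). Of 29 genes tested 16 fell and 4 rose, and of 22 measured in both stages 9 fell and 4 rose. The 4 were the kinase activator Cdk5r1 (1.76), Mllt11 (1.73), the growth cone protein gene Gap43 (1.56) and the stathmin gene Stmn2 (1.27). The 2-fold call of Stmn2 was lost without adult 2 (1.22) or 3 (1.28) and without E12.5 sample 2 (1.28) or 3 (1.19). That of Mllt11 was lost with averaged probe sets (1.06). Tbr1, a factor of early cortical neurons, was at 10.77, 10.79 and 10.65 at E12.5 and at 10.38, 10.03 and 10.91 in adults, and was not called (-0.30, SE 0.20) unless adult 3 was left out (-0.53).

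Genes of the Polycomb complexes differed in both directions. Ezh2, the methyltransferase of Polycomb repressive complex 2, stood at 11.82, 11.64 and 11.68 at E12.5 and at 3.72, 4.61 and 3.87 in adults. Its relative Ezh1 went the other way, from 4.94, 4.94 and 4.49 to 8.0, 7.76 and 7.98. Neither overlapped between stages, and the differences were -7.65 (adjusted p = 1.7e-10) and 3.12 (adjusted p = 5.1e-07). The chromobox gene Cbx2 fell by 5.87 while Cbx7 rose by 3.81. The core subunits Eed (-2.72) and Suz12 (-2.53) fell as well. Of 27 Polycomb genes tested 11 fell and 4 rose, the other risers being Cbx6 (2.22) and Yaf2 (1.53), and of 24 measured in both stages 9 fell and 3 rose.

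The BAF remodelling complex exchanges subunits as progenitors become neurons. Actl6a, the actin-like subunit of progenitors, fell by 3.84, to adult values of 7.98, 8.16 and 7.88. Actl6b, its neuronal counterpart, rose by 3.22, from 3.51, 3.71 and 3.82 to 6.63, 6.69 and 7.38. The ATPase gene Smarca4 fell by 1.38 and Smarca2 rose by 1.84. With sex pattern as a covariate Smarca4 did not pass 2-fold (-1.29, adjusted p = 0.068). Other replaced subunits gave less: Phf10 fell by 2.85 while Dpf1 did not differ by the test (-0.07, SE 0.20), and Ss18 fell by 2.47 while Ss18l1 was higher by 1.09 without passing the 2-fold test (adjusted p = 0.55). Of 27 BAF genes tested 12 fell and 2 rose, and of 26 measured in both stages 12 fell and 1 rose. With sex pattern as a covariate 9 of the 27 fell and 2 rose.

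Pairs of related genes, one known for its embryonic and one for its adult or neuronal expression, were set side by side. The pairs were chosen with earlier results of these data known, and no share expected for a pair was worked out. Both members were on the array for 32 pairs. The pairs with Grin2a and with the adhesion molecule gene Cntnap1 could not show opposite calls, since the probe sets of these genes were not tested. In 10 pairs the embryonic member fell and the adult one rose past 2-fold, and in 14 they did so by the ordinary test. Besides the pairs named above, these 10 were Tubb2b (-3.22) with Tubb4a (4.99), beta tubulins; Nes with Nefm (4.68), intermediate filaments; Fabp7 with Fabp3 (6.53); the nuclear lamins Lmnb1 (-5.64) with Lmna (4.08); the hexokinases Hk2 (-5.29) with Hk1 (3.61); and Dcx (-3.36) with Dclk1 (4.44), microtubule proteins of migrating and of mature neurons. In the hexokinase pair, Hk1 stood at 11.33, 11.38 and 11.42 in adults against 7.87, 7.73 and 7.70 at E12.5. In 6 pairs both rose and in 4 both fell, among them the D-type cyclins Ccnd1 (-2.51) and Ccnd2 (-4.55). The 1 reversed pair was Cfl1 (0.30, called) with Cfl2 (-1.05, called), both short of 2-fold, and Cfl1 was no longer called without adult 3 (0.26) or without E12.5 sample 2 or 3 (0.28 each).

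**Figure D3:**
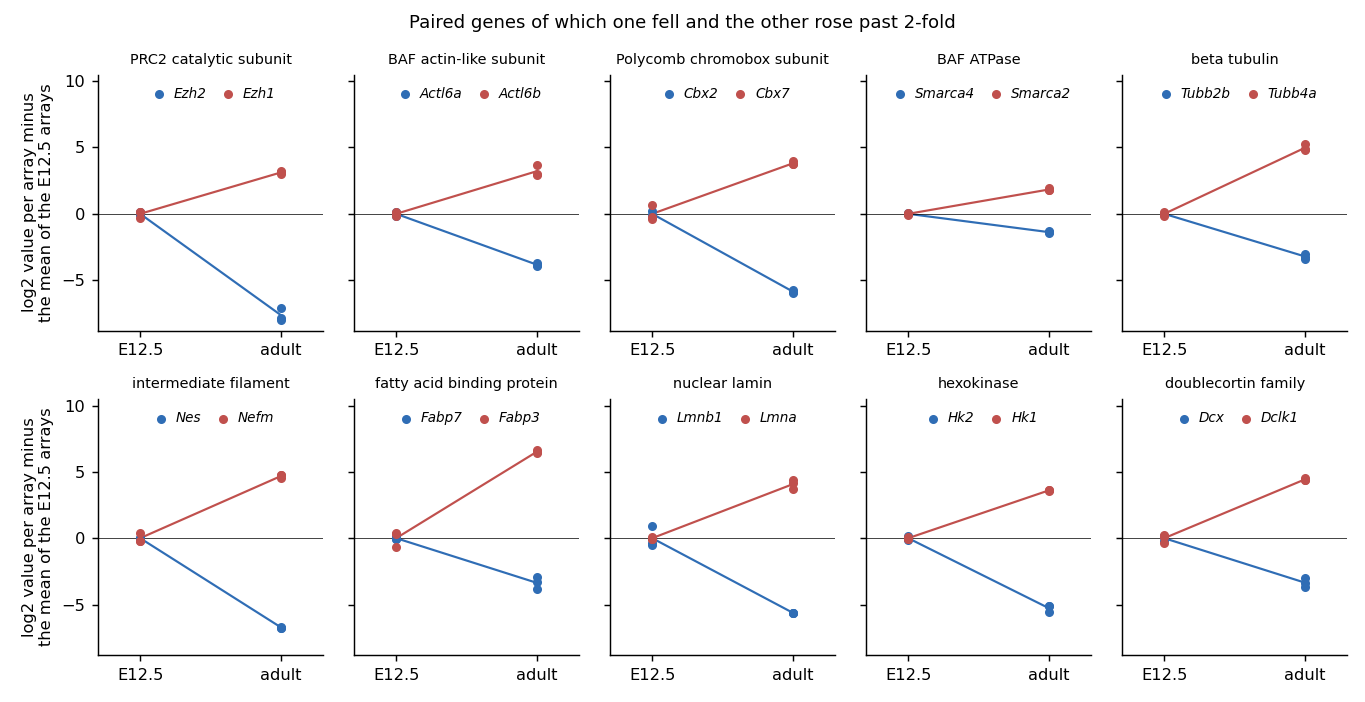
Each panel shows a pair of related genes of which one fell (blue) and the other rose (red) past 2-fold, as the log2 value of each array minus the gene's mean over the 3 E12.5 arrays (vertical axis), for the 3 E12.5 and the 3 adult arrays (horizontal axis); lines join group means. The pairs shown were chosen for this, so in all 10 panels the adult points of the pair lie on opposite sides of 0.

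In further pairs one member differed by more than the other. The chloride transporters set the direction of GABA-gated current in neurons: Slc12a5 (KCC2), which extrudes chloride, stood at 5.96, 4.93 and 4.62 at E12.5 and at 12.81, 12.82 and 12.80 in adults, whereas Slc12a2 (NKCC1), which loads it, stood at 10.07, 9.84 and 9.78 against 9.94, 9.69 and 9.78. Slc12a5 rose by 7.64 (SE 0.28, adjusted p = 1.2e-09), and for Slc12a2 the 95% interval of the difference ran from -0.39 to 0.20. The vesicular glutamate transporter Slc17a7 rose by 6.56, while Slc17a6 was lower by 1.13, called but short of 2-fold (adjusted p = 0.26). The translation elongation factors Eef1a1 and Eef1a2 differed by -0.17 (not called) and 5.28. Of the dynamins, which pinch off vesicles, the neuronal Dnm1 rose by 7.96. The probe set of the ubiquitous Dnm2 gave the same value, 6.62, on 5 of the 6 arrays (-0.08), so equal levels cannot be read from it. Dnm2 was called at -0.36 when its probe sets were averaged.

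DNA methylation and histone acetylation genes fell more often than they rose. Of 16 DNA methylation genes tested 7 fell and 2 rose, and of 14 measured in both stages 5 fell and 2 rose. The de novo methyltransferase Dnmt3b went from 7.60, 6.66 and 6.79 to 2.56, 2.45 and 2.23, and the maintenance methyltransferase Dnmt1 from 10.61, 10.41 and 10.59 to 8.21, 8.23 and 8.63. These were falls of 4.60 and 2.18 with no overlap. Dnmt3a was lower by 1.02 without passing 2-fold (adjusted p = 0.83), but fell by 1.93 when its probe sets were averaged (adjusted p = 3.6e-05). The oxidase gene Tet1 fell by 3.04, and Zbtb4, a methyl-CpG binding zinc finger protein, rose by 5.05. Of 34 acetylation genes 12 fell and 3 rose, and of 33 measured in both stages 11 fell and 3 rose. The deacetylases Hdac1 and Hdac2 fell by 3.65 and 2.02, and Hdac11 (3.40), Hdac5 (2.07) and Hdac9 (1.89) rose. Rest, the repressor of neuronal genes in other cells, fell by 4.38, from 8.63, 8.60 and 8.84 to 4.69, 4.14 and 4.10, and its corepressor Rcor2 by 5.41.

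Of 22 histone, HMG and lamina genes tested, 17 fell and 1, Lmna, rose. Measured in both stages were 17, of which 13 fell and 0 rose. Hmgb2, an abundant DNA-bending protein of dividing cells, stood at 13.98, 13.95 and 13.92 at E12.5 and at 6.49, 6.69 and 6.77 in adults, a 157-fold difference (adjusted p = 2.7e-12). The replacement histone H2az1 fell by 2.21, the nucleosome binding protein Hmgn1 by 2.89, and the lamin B receptor Lbr fell too (-3.78).

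Fetal growth genes included some of the largest falls. Hmga2, a let-7 target, stood at 12.59, 11.12 and 10.93 at E12.5 and at 2.19 in every adult. The mRNA-binding proteins Igf2bp1 and Igf2bp3 fell by 7.76 and 7.47, and Mycn, a driver of progenitor growth, by 4.74. Each had adult values apart from every E12.5 value. With only probe sets over 4 on all 6 arrays, another probe set stood for Igf2bp1. That probe set did not pass 2-fold (-1.15, adjusted p = 0.74). Of 20 genes tested 12 fell and 2 rose, and of 18 measured in both stages 9 fell and 2 rose. Imprinted genes went both ways. The paternally expressed Mest (-5.06), Nnat (-3.76), Plagl1 (-3.09) and Igf2 (-1.87) fell, as did Grb10 (-4.25) and the maternally expressed Cdkn1c (-3.82). The noncoding Meg3 rose by 2.78 and Peg3 by 1.45. The 2-fold call of Igf2 was lost without adult 1 (-1.80) or 3 (-1.83) or E12.5 sample 3 (-1.62). Ndn was at about the same level in both tissues (-0.01, not called).

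Genes of the presynaptic terminal rose nearly throughout. Snap25, the SNARE protein of vesicle fusion, stood at 7.69, 8.91 and 8.55 at E12.5 and at 15.62, 15.52 and 15.53 in adults. Rims1, a scaffold of the active zone, went from 3.34, 3.11 and 2.98 to 11.51, 11.52 and 11.59. Adult values of both genes lay within a narrow range far above every E12.5 value, with differences of 7.17 and 8.40 (adjusted p = 7.9e-10 and 9.6e-13). The calcium sensor of release, Syt1, rose by 7.41, Syn1, which tethers vesicles, by 7.27, the plasma membrane SNARE gene Stx1a by 5.06 and the SNARE-disassembling ATPase Nsf by 4.58. Of 34 genes tested 31 rose and 0 fell past 2-fold, with a median of 5.09. With only probe sets over 4 on all 6 arrays, 23 of 26 rose. Slc17a6 was the 1 gene of the list with a called decrease.

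Receptors and postsynaptic proteins rose as well. The metabotropic glutamate receptor Grm5 stood at 2.25, 2.25 and 2.32 at E12.5 and at 10.59, 10.74 and 10.47 in adults. Grin2b, an NMDA receptor subunit, went from 2.73, 2.76 and 2.71 to 9.83, 9.50 and 9.40. Every E12.5 value was close to the floor, so the differences of 8.33 and 6.84 understate the change. Of 33 glutamate receptor and scaffold genes tested 28 rose, and with only probe sets over 4 on all 6 arrays 15 of 18 did. AMPA receptor subunits differed in size of rise: Gria1 by 6.88 but Gria2, already at 9.48, 10.08 and 10.02 at E12.5, by 2.96. The kainate receptor gene Grik2 was slightly lower in adults (-0.50, with overlapping groups), a call by the ordinary test that was lost on leaving out any 1 of the 6 arrays other than E12.5 sample 1 (-0.57 to -0.38). The Grin2a probe set was at 2.19 on all 6 arrays and was not tested. For GABA, 11 of 13 genes rose (4 of 6 measured in both stages), including the receptor subunits Gabrb1 (7.16), Gabrb2 (6.49), Gabra5 (6.29) and the extrasynaptic subunit Gabrd (6.15).

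Ion channels and calcium signalling followed the same direction. Of 43 voltage-gated channel genes tested 36 rose and 0 fell, with a median of 4.91, and of 26 measured in both stages 19 rose, with a median of 3.66. Scn2a, an axonal sodium channel, went from 5.03, 5.33 and 5.03 to 12.41, 12.55 and 12.48, and the potassium channel gene Kcna1 from 2.34, 3.15 and 2.65 to 11.80, 11.55 and 11.74. The gaps were 7.35 and 8.98 log2 units. Scn1a, the channel of fast-spiking interneurons, rose by 8.10, but Scn3a, known for its embryonic expression, was higher by 0.80 with overlapping groups, and its call was lost without adult 2 (0.81), adult 3 (0.74), E12.5 sample 2 (0.69) or sample 3 (0.53). The T-type calcium channel Cacna1h (0.18) was not called. Of 30 calcium sensor and kinase genes tested 28 rose, with a median of 5.34, and with only probe sets over 4 on all 6 arrays 19 of 21 did. Nrgn, the calmodulin-binding protein neurogranin, was at 2.19 in every E12.5 sample and at 10.63, 10.56 and 11.41 in adults. Camk2a, the kinase of synaptic plasticity, stood at 12.86, 12.51 and 12.21 in adults but at 6.46 in E12.5 sample 1 against 3.05 and 3.26 in samples 2 and 3, so that its SE of 0.74 was large for its difference of 8.27. The kinase Camk4 rose by 7.75 and the ryanodine receptor Ryr2 by 8.12.

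**Figure D4:**
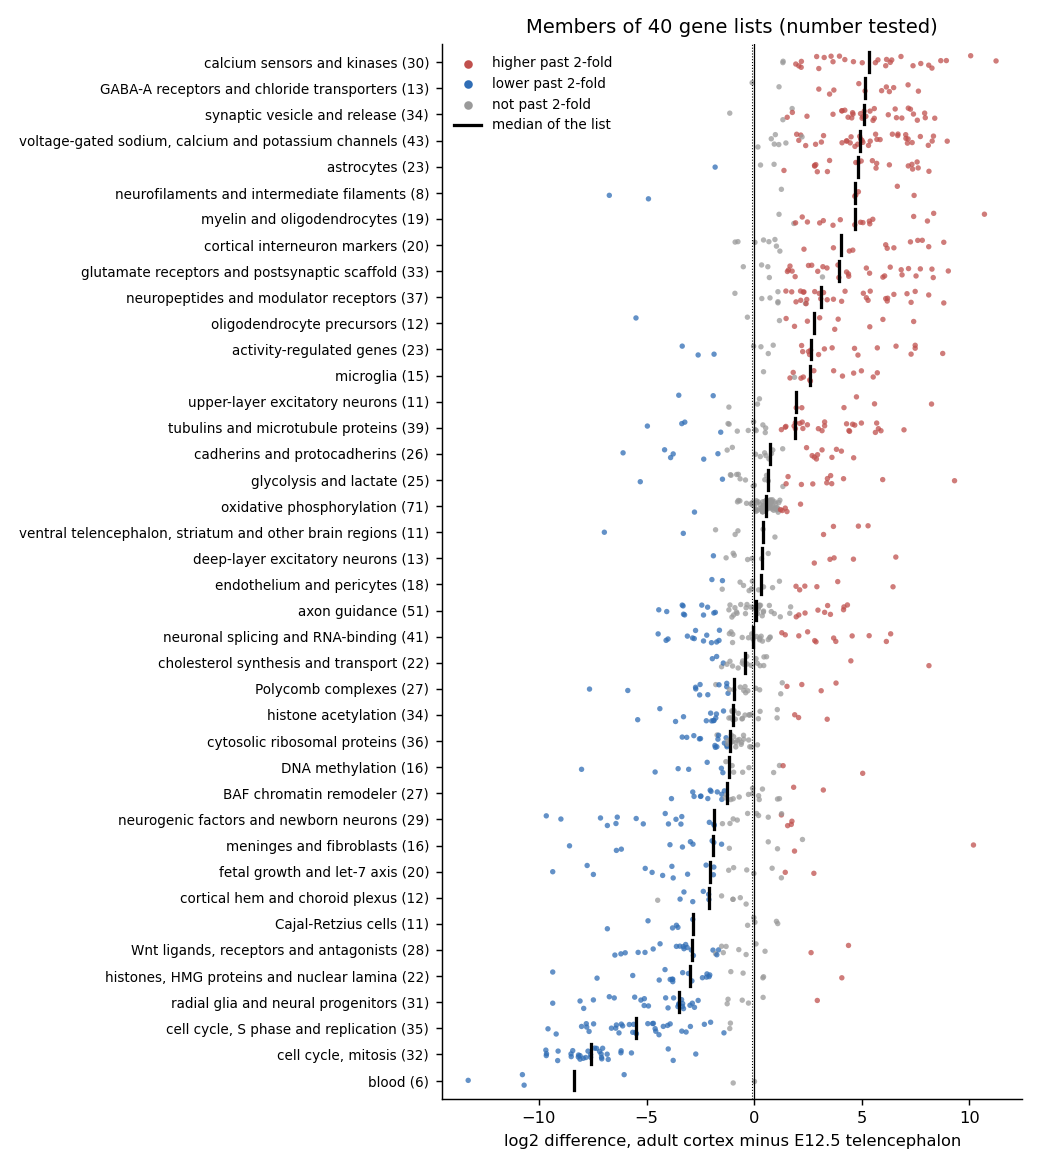
Log2 difference, adult cortex minus E12.5 telencephalon (horizontal axis), of each tested member of 40 gene lists (rows, with the number tested), red for genes that rose past 2-fold, blue for genes that fell and grey for the others; black bars are list medians and the dotted line is the median of all genes. The mitotic genes all lie left of 0, with a median of -7.6, and the calcium sensors and kinases all lie right of it, with a median of 5.34.

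Taken as 1 list, tubulin and microtubule genes rose more often than they fell. Of 35 measured in both stages 22 rose and 3 fell. Among all 39 tested 25 rose and 4 fell: Tubb6 (-4.96), Dcx, Tubb2b and Mapre1 (-1.55). The tubulins alone did not share this direction. Of 17 tubulin genes by name family 5 rose, 3 fell and a further 7 were called lower, with a median of -0.657. Tuba1a, an abundant tubulin of young neurons, was called but close to equal, at 14.86, 14.93 and 14.91 at E12.5 and 14.70, 14.74 and 14.44 in adults (-0.27), a call lost without adult 3 (-0.18) or without E12.5 sample 2 (-0.26) or 3 (-0.27), while Tuba4a rose by 5.90. The axonal motor Kif5a rose by 5.70, the stathmin Stmn3 by 3.28, the dynein chain Dync1i1 by 6.97 and Mapt, which encodes tau, by 3.16. Of 8 intermediate filament genes, the neurofilament genes Nefl (7.44), Nefm (4.68) and Nefh (6.66), Synm (4.85) and the astrocytic Gfap (4.73) rose, and Nes and Vim (-4.91) fell, and of 4 measured in both stages 2 rose and 1 fell.

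Markers of cell types were read as a check of the labelled tissues and as the makeup of each. Adult cortex held markers of each mature class. Slc1a2, the main glutamate transporter of astrocytes, stood at 14.78, 14.79 and 14.54 in adults against 7.42, 7.01 and 6.93 at E12.5, and the water channel Aqp4 at 9.79, 9.80 and 9.64 against 2.83, 2.19 and 2.19. The myelin proteolipid gene Mal was at 10.61, 10.10 and 10.61 against 2.32, 2.51 and 2.32. All 3 genes were at similar values in all adults and far lower in every E12.5 sample. Of 23 astrocyte genes 20 rose and 1 fell, Fgfr3 (-1.81), a receptor also made by progenitors, and of 15 measured in both stages 12 rose and 1 fell. The apolipoprotein gene Apoe, secreted by astrocytes and microglia, rose by 8.13, from 3.53, 5.74 and 6.07 to 13.24, 13.34 and 13.15. Gja1 differed by only 0.30, called with overlapping groups, and lost that call without adult 1 (0.23) or 2 (0.29) and without E12.5 sample 1 (0.22) or 2 (0.33).

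Of 19 myelin and oligodendrocyte genes 17 rose (7 of 9 measured in both stages), among them Mobp (8.35), the lineage factor Olig1 (7.42) and Cnp (4.68), and Myrf (1.16) and Cldn11 (1.85) were called without passing 2-fold. For Cldn11 the E12.5 samples were at 5.90, 8.04 and 8.12. Of 12 oligodendrocyte precursor genes 9 rose (2 of 4 measured in both stages), and Vcan, a matrix proteoglycan that other embryonic cells also make, fell from 10.75, 10.42 and 10.55 to 4.88, 5.10 and 5.27. The receptor Pdgfra rose by 1.49 and Sox10 by 2.48, the former not past 2-fold without adult 2 or E12.5 sample 1 (1.38 each). Of 15 microglial genes 13 rose, and 5 of 5 measured in both stages. Csf1r, the receptor on which microglia depend, was at 9.35, 9.57 and 9.31 in adults against 3.87, 5.14 and 4.24, and the purinergic receptor P2ry12, a mark of mature microglia, at 7.86, 8.23 and 7.95 against 2.19, 2.26 and 2.41.

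Vascular markers did not share a direction. Of 18 endothelial and pericyte genes 6 rose and 2 fell, and of 12 measured in both stages 3 rose and 1 fell. The transporters of the blood-brain barrier Slco1c1 (6.46) and Abcb1a (3.89) rose, whereas the glucose transporter Slc2a1 (-1.47) and the junction gene Cdh5 (-1.96) fell. Pecam1 gave the same value, 4.19, on 5 of 6 arrays, so equal levels cannot be read from it. Slc2a1 missed the 2-fold test without adult 2 (-1.35). The median of the list was 0.32 and turned negative, to -0.0979 at the lowest, without a filter on low values and with only probe sets over 4 on all 6 arrays. Of 16 fibroblast and meningeal genes 10 fell and 2 rose, and of 7 measured in both stages 4 fell and 1 rose. The collagen gene Col3a1 stood at 11.52, 11.81 and 11.94 at E12.5 and at 2.54, 3.75 and 3.22 in adults, and Lum at 8.55, 8.91 and 9.40 against 2.79, 2.77 and 2.79. Ptgds, made by meningeal cells and by oligodendrocytes, ran against the list with a rise of 10.20, and Aldh1a2 (1.88) rose too.

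Blood RNA was present at E12.5. The embryonic beta-like globin Hbb-y stood at 15.47, 15.42 and 15.56 at E12.5 and at 2.19 in every adult, the largest difference of the comparison at -13.29 (adjusted p = 3.4e-15). Other erythroid genes that fell were Hba-x (-10.77), Hbb-bh1 (-10.69) and the anion exchanger Slc4a1 (-6.04). Of 6 blood genes tested 4 fell, and 1 of the 6 was over 4 on all 6 arrays, Tfrc, the transferrin receptor of many cell types, at 10.79, 10.46 and 10.51 at E12.5 against 10.63, 10.42 and 10.78 in adults. Globin genes resemble each other, and their probe sets may share signal.

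Signal of tissue next to the dorsal telencephalon was visible as well. Ttr, the product of choroid plexus, stood at 10.78, 13.83 and 13.85 at E12.5 and at 9.07, 6.78 and 9.18 in adults, and the difference of -4.48 did not pass 2-fold (adjusted p = 0.094). Its call by the ordinary test was lost on leaving out any 1 of the 6 arrays other than E12.5 sample 1 (-4.89 to -3.70). Ttr did pass 2-fold with only the 6 wild-type arrays in the fit (adjusted p = 0.02) and with array weights (-4.93, adjusted p = 0.013). Of 12 cortical hem and choroid plexus genes 6 fell (1 of 6 measured in both stages). Of 11 Cajal-Retzius cell genes 6 fell and 0 rose (1 of 5 measured in both stages fell), among them Nhlh2, Ebf3 (-4.93), Zic1 (-3.54), Lhx1 (-3.61) and Trp73 (-2.85). Reln, the secreted reelin of Cajal-Retzius cells and later of interneurons, was at 9.60, 10.49 and 10.37 at E12.5 and at 10.11, 10.51 and 9.98 in adults, a difference of 0.04 with a 95% interval from -0.54 to 0.62.

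**Figure D5:**
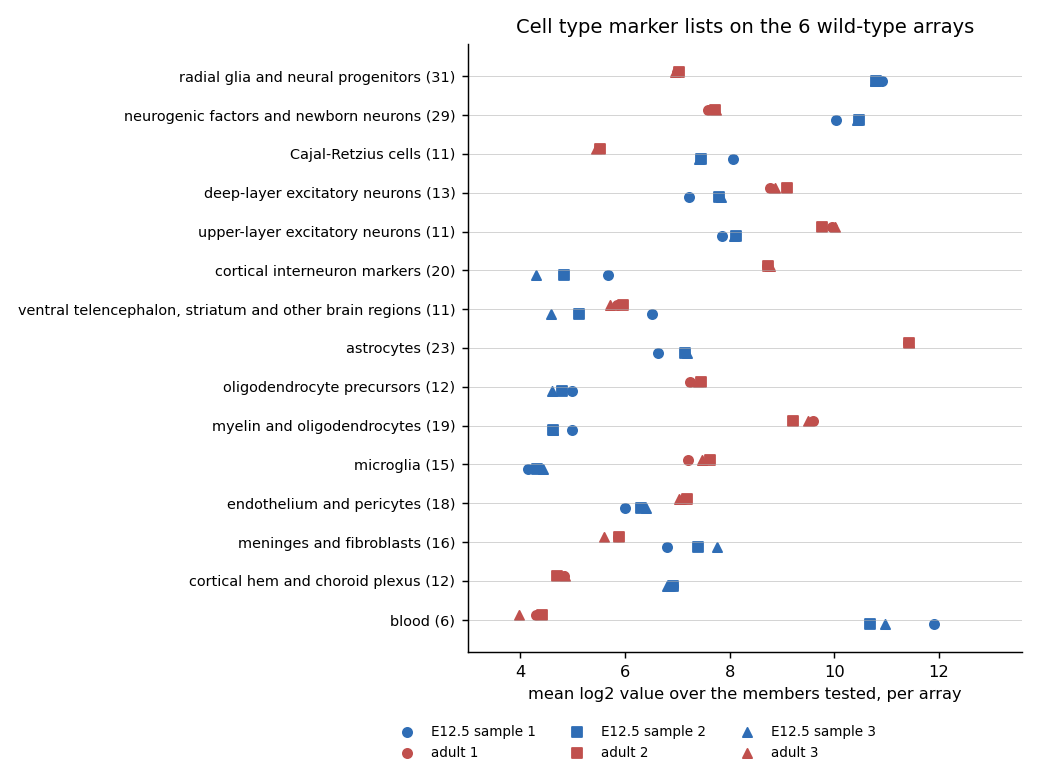
Mean log2 value over the tested members of each of 15 marker lists (rows, number tested in parentheses) on each of the 3 E12.5 arrays (blue) and 3 adult arrays (red), with a marker shape for each sample. Adult points lie right of all E12.5 points for astrocytes, myelin and microglia and left of them for radial glia and blood, and E12.5 sample 1 stands apart for interneuron, ventral telencephalon and blood lists.

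Interneuron and ventral markers varied among the E12.5 samples. Of 20 cortical interneuron genes 12 rose. The peptides Vip (8.12) and Cck (8.82) and the calcium-binding proteins Pvalb (7.61) and Calb1 (7.82) were among the largest rises, with Pvalb at 10.08, 9.43 and 10.01 in adults against 2.25, 2.21 and 2.25. With only probe sets over 4 on all 6 arrays, 0 of 5 rose. The homeobox genes Dlx1 and Dlx2, which specify interneurons in the ventral telencephalon, were not called: Dlx1 stood at 9.30, 6.14 and 2.92 at E12.5 against 7.20, 6.63 and 7.43, and Dlx2 at 9.04, 5.80 and 3.20 against 5.99, 4.80 and 5.02. In both, E12.5 sample 1 was above and sample 3 below every adult. The GABA-synthesizing enzyme Gad1 showed the same order, with 7.86, 5.28 and 3.74 against 13.01, 12.70 and 12.96, and still rose (7.27, SE 1.08, adjusted p = 0.00024). Of the ventral and other brain region list 2 genes were measured in both stages, and 1 fell. The mean of its 11 tested genes was 6.51 in E12.5 sample 1 against 5.12 and 4.59, and that of the interneuron list 5.67 against 4.83 and 4.30.

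Markers of cortical layers were present at both stages. Of 11 upper-layer genes 6 rose and 2 fell (4 and 2 of 9 measured in both stages), the latter being the transcription factors Lhx2 (-3.50) and Pou3f3 (-1.90), which progenitors also express. Rasgrf2 rose by 8.25, Mef2c by 5.60 and Rorb, a factor of layer 4, by 4.76. Of 13 deep-layer genes 5 rose and 1 fell (3 and 1 of 10 measured in both stages). The fall was that of Fezf2, which specifies subcerebral projection neurons, from 10.49, 10.68 and 10.88 to 8.58, 8.85 and 8.97 (-1.89, adjusted p = 0.00053). The rises included Hs3st4 (6.59) and Pcp4 (4.62). Bcl11b was lower by 0.97 without passing 2-fold, and Foxp2 (-0.10) and Tbr1 were not called. With averaged probe sets Foxp2 was called lower (-0.82).

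E12.5 sample 1 stood apart from samples 2 and 3 in a small set of genes. Among genes whose other 2 E12.5 values were within 0.5 of each other, it lay more than 2 log2 units above their mean for 13 genes and below it for 37, against 0 and 0 for sample 2, 2 and 2 for sample 3, and at most 1 for any adult. The glycolytic enzyme Aldoc stood at 7.43 in it against 11.18 and 11.44. Tac1, which encodes substance P, was at 7.75 against 3.97 and 3.99, the noncoding Snhg11 at 7.78 against 4.82 and 4.67, and Sst at 3.10 against 5.77 and 5.76. Snhg11 (7.95) and Sst (6.50) rose. Aldoc (3.41) passed 2-fold narrowly (adjusted p = 0.037), and was at 2.12 without sample 1 (adjusted p = 0.14) and not past 2-fold on leaving out any 1 of the adults (3.38 to 3.44) or with only the 6 wild-type arrays in the fit (adjusted p = 0.071). Tac1 (3.69) lost the 2-fold call without adult 2 (3.53) or E12.5 sample 2 (3.05) or 3 (3.06). The mean of the blood list was 11.9 in sample 1 against 10.68 and 10.97. Sample 1 is from another cross than the other samples, and the part of cross and dissection in these values cannot be told apart.

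Of the signalling lists, Wnt genes mostly fell. Of 28 Wnt ligand, receptor and antagonist genes tested 18 fell and 2 rose, and with only probe sets over 4 on all 6 arrays 9 of 17 fell and 1 rose. The receptor Fzd8 stood at 10.26, 10.13 and 10.17 at E12.5 and at 3.72, 3.73 and 3.70 in adults, and the secreted antagonist Sfrp2 at 8.27, 8.28 and 8.01 against 2.22, 2.19 and 2.19. The differences were -6.47 and -5.99, with no overlap. Further receptors fell by less, Fzd2 by 4.37 and Fzd1 by 3.61, as did the nuclear effectors Tcf7l1 (-5.39) and Lef1 (-3.11) and the target Axin2 (-1.65). Axin2 missed 2-fold without adult 2 (-1.53) or E12.5 sample 3 (-1.57). Dkk3 rose by 4.39 and the ligand Wnt4 by 2.65. Fzd3, needed for axon tracts, was lower by 0.71, called but short of 2-fold. With averaged probe sets it fell by 1.98 (adjusted p = 4.0e-06).

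For axon guidance 10 of 51 genes rose and 11 fell, shares of which each is close to the background, and the median of 0.09 changed sign under some settings. Of 44 measured in both stages 6 rose and 10 fell. The ephrin Efnb1 (-4.43), the receptor Epha3 (-4.06) and the netrin receptor Dcc, at 10.71, 11.18 and 11.06 at E12.5 against 7.74, 7.66 and 7.64, fell. The netrin receptors Unc5a (4.16) and Unc5d (4.18) and the semaphorins Sema3e (4.34) and Sema7a (3.55) rose. Robo1 (-0.82) and Efna5 (1.70) were called without passing 2-fold, and without E12.5 sample 1 Efna5 passed it (2.10). Of 26 cadherins and protocadherins 10 rose and 6 fell (6 and 4 of 19 measured in both stages). The planar polarity gene Celsr1 (-6.09) and the giant cadherins Fat4 (-3.88) and Dchs1 (-4.16) fell, and Pcdh9 (4.06), Pcdh7 (3.83) and Cdh9 (4.63) rose.

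Genes induced by neuronal activity mostly rose. Of 23 tested, 16 rose and 3 fell, and of 15 measured in both stages 8 rose and 3 fell. The transcription factor Egr3 rose by 8.77 (SE 0.36), and the neurotrophin Bdnf was at 7.62, 8.76 and 7.94 in adults against 2.55, 2.21 and 2.36. Several immediate early genes varied among the adults: Arc stood at 6.28, 8.22 and 7.35 and Npas4 at 4.56, 6.25 and 7.54. Their rises of 3.27 and 2.58 passed 2-fold (adjusted p = 0.0026 and 0.038), but the 2-fold call of Npas4 was lost on leaving out any 1 array other than adult 1 (1.86 to 2.58). Jun (-1.86), Ier2 (-2.60) and the phosphatase Dusp4 (-3.34), also growth factor targets, fell. With averaged probe sets Jun did not pass 2-fold (-1.44). Of 37 neuropeptide and modulator receptor genes 30 rose and 0 fell (8 and 0 of 13 measured in both stages), among them chromogranin B, Chgb (7.11), the cholecystokinin receptor Cckbr (6.21) and the neuropeptide Npy, at 10.09, 10.42 and 10.37 in adults against 4.47, 3.57 and 4.26. The cannabinoid receptor Cnr1 (0.36) and the somatostatin receptor Sstr2 (-0.89) were not called, the latter unless E12.5 sample 1 was left out (-1.67).

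Of 25 glycolysis and lactate genes 11 rose and 2 fell, and of 22 measured in both stages 9 rose and 2 fell. The neuronal enolase Eno2 stood at 13.37, 13.32 and 13.35 in adults against 3.21, 4.81 and 4.08, and the phosphofructokinase Pfkp at 11.11, 11.23 and 11.15 against 4.93, 5.31 and 5.31. Pkm (0.01) and Pgk1 (-0.04) were not called. Of the lactate dehydrogenase subunits, Ldhb rose by 1.58 and Ldha was called lower (-0.65), short of 2-fold. The neuronal glucose transporter Slc2a3 rose by 4.16, from 7.61, 7.05 and 7.24 to 11.29, 11.74 and 11.35. The 71 oxidative phosphorylation genes tested were mostly called higher, by small amounts: 5 rose past 2-fold, a further 48 were called higher and 1, Cox7c (-2.77), fell, with a median of 0.55. Of 70 measured in both stages 4 rose and 1 fell. The largest rises were Cox8a (2.16) and Ndufb9 (1.53), and the synthase subunit Atp5b was called higher by 0.73, short of 2-fold.

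Most ribosomal protein genes were lower in adults. Of 36 tested, which were all over 4 on all 6 arrays, 14 fell, a further 18 were called lower and 0 rose, with a median of -1.1. Rplp0 went from 14.41, 14.57 and 14.63 to 11.89, 12.03 and 12.06. Ribosomal protein genes have many near-identical pseudogenes, so single probe sets are uncertain. Splicing and RNA-binding genes went both ways. Of 41 genes 12 rose and 13 fell, and of 39 measured in both stages 9 rose and 13 fell. Ptbp1, the splicing repressor of progenitors, stood at 11.56, 11.55 and 11.80 at E12.5 against 7.54, 7.44 and 7.67 in adults (-4.09), and its neuronal relative Ptbp2 fell by 1.98. With averaged probe sets Ptbp2 no longer passed 2-fold (-0.70). The general factors Srsf3 (-2.78), Srsf1 (-2.72) and Elavl1 (-4.46) fell. Regulators of mature neurons rose: Rbfox1 by 6.35, Rbfox3, the antigen NeuN, by 4.56, Celf4 by 3.80 and Mbnl2 by 3.70, the last at 12.62, 12.63 and 12.61 in adults against 8.94, 8.92 and 8.90. Of 22 cholesterol genes 3 fell, Idi1 (-1.94), Fdps (-1.74) and Cyp51 (-1.43), and 2 rose, Apoe and the brain-specific Cyp46a1 (4.50), which removes cholesterol. Of 21 measured in both stages 3 fell and 1 rose.

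Counts by name family, several of which share members with the lists, complete the description. Of 21 Cenp centromere genes 20 fell, of 18 nucleoporins (Nup) 17, of 25 RNA polymerase subunits (Polr) 14 and of 271 Zfp zinc finger genes 78, with 0, 0, 0 and 8 rising. Of the 21 Cenp genes 8 were measured in both stages. A further 12 were over 4 in 1 stage only and had to differ in order to be tested. Of 47 potassium channel genes (Kcn) 38 rose and 1 fell, with 21 of the 47 measured in both stages and 20 over 4 in 1 stage only. Of 12 Camk genes 12 rose, and of 15 subunits of the vacuolar proton pump (Atp6v) 11 rose and 0 fell. Of 9 Snrp genes of the spliceosome 8 fell and 1 rose, the imprinted Snrpn, which is a neuronal form, from 4.48, 4.64 and 5.02 to 7.78, 7.79 and 7.89. Of 76 mitochondrial ribosomal genes (Mrpl and Mrps) 3 fell, 0 rose, a further 48 were called lower and 6 higher, with a median of -0.593. Of 45 proteasome genes (Psm) 9 fell and 1 rose, and the share that fell, 20.0%, was close to the 21.5% over all genes.

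Among genes measured in both stages the largest rises were Ddn (8.35), a dendritic protein gene, the adenylyl cyclase Adcy1 (7.97), Snhg11, the sodium pump subunit Atp1b1 (7.92), at 14.92, 14.78 and 14.92 in adults against 7.84, 6.50 and 6.53, and the protein kinase A subunit Prkar1b (7.89). The hormone-responsive factor Klf9 rose by 7.51 and Lamp5 by 7.39. The largest falls were the replication-associated Pclaf (-7.78), Cdc20, Hmgb2, Jpt2 (-6.98), the retinal determination factor Dach1 (-6.97) and the cyclin-dependent kinase partner Cks1b (-6.62). Cd24a, a surface protein of young neurons, fell by 6.19, from 13.54, 13.52 and 13.36 to 7.05, 7.86 and 6.95. Of genes near the floor, at 2.5 or lower, on all 3 arrays of a stage and over 4 on all 3 of the other, 86 were near it at E12.5 and 219 in adults. Car10 was among the brightest of the former, at 11.19, 10.80 and 11.50 against 2.24 on each E12.5 array.

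Some genes were close to equal. Of the 1025 genes over 10 on all 6 arrays, the 10 with the interval closest around 0 included the polyamine regulator Oaz1, at 13.42, 13.52 and 13.45 in adults against 13.34, 13.48 and 13.45 at E12.5 (95% interval -0.15 to 0.23, although it was called at 0.25 after quantile normalization), the actin-binding thymosin Tmsb4x (-0.23 to 0.22), the ribosomal protein gene Rps29 (-0.13 to 0.23), the citrate synthase gene Cs (-0.20 to 0.26) and the mitochondrial channel Vdac3 (-0.25 to 0.18).

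For 48 of 4120 genes with several specific probe sets, probe sets of the same gene passed the 2-fold test in opposite directions. One probe set of the septin gene Septin11 went from 8.86, 9.15 and 9.19 to 5.20, 5.46 and 5.20, while another went from 6.18, 6.50 and 6.45 to 9.63, 10.03 and 9.75. For the adducin gene Add2 the differences were -3.68 and 2.79, for the kinesin gene Kif1b -5.40 and 2.66, and for the Mediator subunit gene Med14 -2.94 and 2.95. Which transcripts these probe sets detect was not determined here.

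The mutant arrays of the same stages gave the same stage difference for nearly all of these genes. Of the 4919 genes past 2-fold in wild types, 4918 had the same sign in the mutants, 4602 passed 2-fold the same way and 0 did so the opposite way. The exception was Kat6b itself, whose difference was -1.78 in wild types (adjusted p = 0.028) and 0.06 in the mutants. Its 2-fold call was lost without adult 2 (-1.66) or E12.5 sample 2 (-1.77) or 3 (-1.75). With 1 probe set for each gene, no stage difference differed between genotypes by limma (0 of 11262 with an adjusted p under 0.05 over all probe sets). Over all probe sets, 1268 had an unadjusted p under 0.05 and 4 passed. Among the 4 were a second probe set of Kat6b and one of Ifnar2.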

How the data were processed

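The values are GCRMA log2 intensities of an Affymetrix mouse array, as deposited by the authors; GCRMA is named in the submitters' processing notes, which give neither its version nor its settings. They were used unchanged. Of 45101 probe sets, 34945 carried 1 gene symbol through the platform annotation, 932 several and 9160 none, 64 were controls, and 34741 symbols were updated through the gene ID. Between 26.3% and 27.6% of values of an array lay at the floor. The number of arrays, 3 a group, limits the precision.

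Probe sets over a log2 of 4 on at least 3 of the 6 wild-type arrays were fitted with limma 3.58.1 in R 4.3.3 as 4 group means over all 12 arrays (8 residual degrees of freedom). Adult minus E12.5 was tested with eBayes and with treat against 2-fold, with Benjamini-Hochberg adjustment over all 23141 probe sets and a threshold of 0.05. A gene was represented by its 1-symbol probe set of highest mean. The scripts were tested on simulated data. Tables and promoter matches were made in Python 3.11.15.

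Genes were named by these rules: the 15 largest rises and falls over 4 on all 6 arrays, with clone-based names passed over; the 8 highest of each stage that were at 2.5 or lower in the other; members of the pairs; up to 6 list members of lowest p; the 10 least different genes over 10; 8 genes with opposite probe sets; and sex-linked genes and controls. Families are given by counts. Members and lists were chosen with earlier results of these data known. Genes that run against their list, further members shown for range, and genes that stand apart among the E12.5 samples were named after their values were seen. The alternatives were the arrays in the fit, the low-value filter, the probe set for a gene, scaling, the variance model, array weights, sex pattern, the threshold and leaving out each wild-type array.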

Additional observations from a re-analysis of the deposited data

Results flagged for a closer look

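For 4 probe sets the stage difference in wild types differed from that in the mutants by limma's interaction test. A second Kat6b probe set, not well above the floor in adults, differed between genotypes by -2.42 (adjusted p = 0.0038), with wild-type values of 4.80, 5.24 and 5.03 at E12.5 and 2.24, 2.66 and 2.86 in adults. An Ifnar2 probe set, for a subunit of the type I interferon receptor, differed by -1.43 (adjusted p = 0.015), with wild-type values of 5.81, 5.97 and 6.05 at E12.5 and 3.32, 3.52 and 3.42 in adults. The other 2 have no gene symbol and differed by -3.37 (adjusted p = 0.015) and -2.93 (adjusted p = 0.0038).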

How the results depend on the processing

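The 18327 probe sets called became 17587 to 17894 when any 1 wild-type array was left out, and the genes past 2-fold (4919) became 4724 to 4784, with 2405 to 2443 rising and 2306 to 2343 falling. Over the other settings the counts ran from 11840 to 19073 and from 3457 to 5165. The lowest were 11840 when probe sets were averaged per gene, where 14643 rows were tested, and, with only probe sets over 4 on all 6 arrays, 1615 rising and 1842 falling of 9510 genes. Of 413 named genes 349 were past 2-fold. Leaving out 1 array lost 3 to 9 of these calls, as given beside those described, while averaging probe sets lost 13, the sex covariate 9, no filter 6, and each other setting 3 or fewer. With averaged probe sets 4 called genes turned sign: Ap3b1 (0.35 to -0.17), Kif1b (1.92 to -0.21), Med14 (-2.94 to 0.01) and Robo1 (-0.82 to 0.31). Without the less specific _s_at and _x_at probe sets Septin11 turned from -3.28 to 3.43 and Gja1 from 0.30 to -0.08. The cause was not tested. With sex pattern as a covariate 2391 genes rose and 2224 fell. Medians of the endothelial, blood, ventral, splicing and axon guidance lists changed sign under at least 1 setting. No paired analysis was possible because the stages share no animals and the numbers in the titles only number the samples. Values at the floor understate differences.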
